A study of Mus musculus with 6 samples.

Results

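The mitochondrial ribosomal protein (MRP) genes examined here are the nuclear genes whose symbol is Mrps or Mrpl followed by a number, with at most 1 letter after it. The symbol alone chose them, and 77 of the 18182 genes in the deposited tables met the rule, 29 with an Mrps symbol and 48 with an Mrpl symbol. All 77 were detected in each of the 6 libraries and passed the filter on low counts, so that no member was lost before testing. They were measured in LLC cells, the Lewis lung carcinoma line of the mouse, sorted from tumours that grew from LLC cells alone or from LLC cells co-injected with bone marrow-derived mesenchymal stem cells (BMSCs).

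Mitochondria keep their own ribosome, which translates the few proteins that the mitochondrial genome encodes, all of them subunits of the respiratory chain and of ATP synthase. Its RNA comes from the mitochondrial genome, whereas all of its proteins are encoded in the nucleus, made in the cytosol and imported. Proteins of the small subunit carry the prefix Mrps and those of the large subunit the prefix Mrpl, with a few historical exceptions such as Mrps18a and Mrps30, which sit in the large subunit, and Mrps36, now known as a component of the 2-oxoglutarate dehydrogenase complex. Some members descend from bacterial ribosomal proteins and others are particular to the mitochondrial ribosome.

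All tumours were raised in wild type C57BL/6 mice by subcutaneous injection. The first group, called LLC alone here, received LLC cells labelled with red fluorescent protein (RFP), and the second, called LLC with BMSCs, received the same labelled cells together with BMSCs. RFP-positive cells were sorted from the tumours by flow cytometry, and each group has 3 libraries. Nothing in the labels says that the libraries came from separate animals, so that p-values measure the spread between these libraries, which may be technical. The comparison asks which transcripts of the cancer cells differed when BMSCs were present in the tumour.

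The estimated counts on genes summed to 33476347 to 46189113 fragments per library. Krt8, a keratin, was at 90.3 to 113 FPKM and Vim, the mesenchymal filament vimentin, at 769 to 931 FPKM, while the epithelial markers Epcam and Cdh1 were at or below 0.04 FPKM in every library. Krt18, another keratin, was at 0.03, 0.09 and 0.13 FPKM in LLC alone against 0.69, 0.63 and 0.64 FPKM in LLC with BMSCs. Summed markers of other cell types were higher in LLC with BMSCs, though not every marker was. The summed level of 10 BMSC and fibroblast markers was 268 to 325 CPM in LLC alone and 676 to 703 CPM in LLC with BMSCs, with 8 of 8 tested markers higher. For 9 neutrophil markers in the files it was 0.476 to 0.807 CPM and 22.5 to 26.1 CPM, with 7 of 7 tested markers higher. A further neutrophil marker, Retnlg, was not listed in any library. For 11 macrophage markers the sum was 23.9 to 28.6 CPM and 34.2 to 36.3 CPM, with 5 of 7 tested markers higher and 1 lower. The 7 lymphocyte markers in the files summed to 0.39 to 0.542 CPM and 2.52 to 2.77 CPM, with the 1 tested marker higher. Cd3d and Ms4a1 were not listed in any library. Sums of 6 erythroid markers were 8.557 to 8.985 CPM and 11.24 to 12.07 CPM, with 3 of 5 tested higher and 1 lower. Sums of 6 endothelial markers were 1.039 to 1.255 CPM and 1.345 to 1.752 CPM, and neither of the 2 tested markers passed. Whether these cells had a part in the MRP values was not tested, and fewer cells of a type cannot be told apart from less RNA per cell in such bulk samples.

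Promoter sequences are shown for 6 members on which the results below turn: the member with the largest decrease (Mrps6), another large decrease (Mrpl36), the only 2 members called higher (Mrpl47 and Mrpl18), and the paralogues Mrps18a, which was not called, and Mrps18b, which was called lower. Each line gives the 250 bases before the annotated transcription start from RefSeq, in the build GRCm38.p6, read 5′ to 3′ on the gene's strand. Capitals mark letters associated with the factors NRF1 (GCGCATGCG, or the shorter TGCGCA), the ETS family with GABP (CCGGAA or CCGGAAG), YY1 (AAGATGGCG or ATGGCGGC) and the E-box of MYC and related factors (CACGTG), on either strand.
Mrps6, chr16:92058086-92058335, plus strand: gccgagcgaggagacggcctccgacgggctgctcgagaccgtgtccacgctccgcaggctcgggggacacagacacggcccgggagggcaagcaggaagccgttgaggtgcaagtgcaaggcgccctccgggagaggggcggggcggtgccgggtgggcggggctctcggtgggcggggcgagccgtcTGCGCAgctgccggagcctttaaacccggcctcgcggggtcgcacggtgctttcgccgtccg
Mrpl36, chr13:73330759-73331008, plus strand: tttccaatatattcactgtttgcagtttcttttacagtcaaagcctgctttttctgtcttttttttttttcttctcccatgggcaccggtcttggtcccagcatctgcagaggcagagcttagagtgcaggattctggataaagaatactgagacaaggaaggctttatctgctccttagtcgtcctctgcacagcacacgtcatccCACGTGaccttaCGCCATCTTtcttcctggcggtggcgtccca
Mrpl47, chr3:32736756-32737005, minus strand: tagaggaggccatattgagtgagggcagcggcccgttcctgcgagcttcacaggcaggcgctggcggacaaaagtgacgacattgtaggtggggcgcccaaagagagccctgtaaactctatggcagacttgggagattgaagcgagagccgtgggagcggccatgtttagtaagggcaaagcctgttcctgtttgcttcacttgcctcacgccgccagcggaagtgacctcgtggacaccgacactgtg
Mrpl18, chr17:12916092-12916341, minus strand: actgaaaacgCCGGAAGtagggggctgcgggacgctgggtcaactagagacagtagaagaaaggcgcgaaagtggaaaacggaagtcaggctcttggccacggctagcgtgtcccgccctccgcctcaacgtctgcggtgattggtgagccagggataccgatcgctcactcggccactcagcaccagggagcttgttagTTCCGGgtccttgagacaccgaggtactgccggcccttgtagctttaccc
Mrps18a, chr17:46110754-46111003, plus strand: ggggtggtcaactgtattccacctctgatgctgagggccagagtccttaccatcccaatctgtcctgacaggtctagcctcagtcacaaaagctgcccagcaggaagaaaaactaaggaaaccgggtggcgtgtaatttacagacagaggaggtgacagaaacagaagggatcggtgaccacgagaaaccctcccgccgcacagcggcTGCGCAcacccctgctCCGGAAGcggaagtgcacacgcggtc
Mrps18b, chr17:35916441-35916690, minus strand: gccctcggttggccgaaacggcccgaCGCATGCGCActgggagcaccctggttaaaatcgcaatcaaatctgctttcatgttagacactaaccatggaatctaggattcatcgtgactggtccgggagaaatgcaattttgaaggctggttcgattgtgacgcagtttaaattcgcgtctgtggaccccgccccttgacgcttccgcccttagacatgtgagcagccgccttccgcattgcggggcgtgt
The window of Mrps6 held the shorter NRF1 letters, that of Mrps18b the longer ones, and that of Mrpl47 none of the 7 spellings. Mrps18a held NRF1 and ETS letters close to its start.

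A promoter entry of 300 bases, 50 of them after the start, was found for 68 of the 77 members and for 10204 of the tested genes. The other 9 members were Mrpl4, Mrpl13, Mrpl15, Mrpl19, Mrpl38, Mrpl54, Mrps28, Mrps34 and Mrps35. NRF1 is a known activator of nuclear genes for mitochondrial proteins, and its longer letters were in 7 of the 68 members (10.29%), against 4.1% of tested genes and 1.95% of all 27025 genes with an entry. Its shorter letters, which can overlap the longer ones, were in 20 members (29.41%) against 15.63% and 8.79%. ETS letters were in 39 members as CCGGAA (57.35% against 31.14% and 16.66%) and in 25 as CCGGAAG (36.76% against 19.98% and 9.93%). The YY1 letters AAGATGGCG were in 8 members (11.76% against 3.53% and 1.64%), and ATGGCGGC, which overlaps them, in 12 (17.65% against 5.69% and 2.6%). The E-box was the one spelling seen in a smaller share of the members, 5 of 68 (7.35%), than of tested genes (11.7%) or all genes (8.09%). These are matches of letters and not measured binding sites, and 54 of the 68 members held at least 1 of the NRF1, ETS or YY1 spellings.

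Most MRP genes were lower in LLC with BMSCs, by small amounts. With edgeR's quasi-likelihood test and Benjamini-Hochberg adjustment over all 13353 tested genes, 43 of the 77 members had an adjusted p under 0.05 and were lower, 2 were higher and 32 did not pass. Over all tested genes, 31.3% were called lower and 31.5% higher, so that 55.8% of the members called lower and 2.6% called higher stand beside nearly even shares. These shares were not matched for level, as the median level was 39.2 FPKM for the members and 9.11 FPKM for all tested genes. The members had a median log2 fold change of -0.26, with 63 of 77 below 0, against 0.01 over all tested genes. The changes were small: 60 of 77 had a log2 fold change smaller than 0.5 in size, 1 reached a size of 1, and the members ran from -1.03 to 0.45. Among the 43 called lower, 26 lay above -0.5. Most members are short, and other short genes were called lower in a like share, as given below with the values by length.

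**Figure D1:**
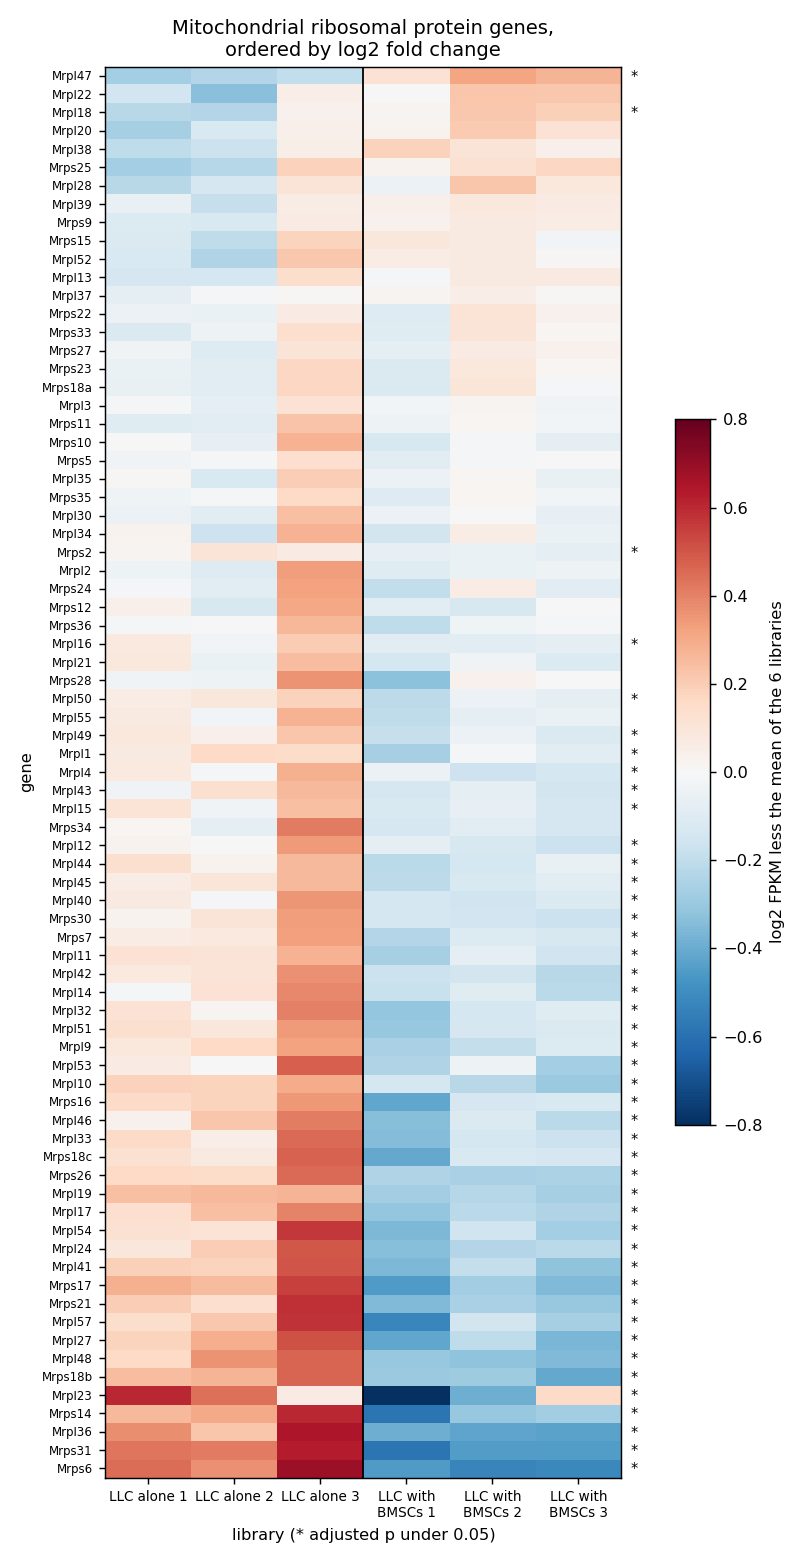
Heat map of the 77 MRP genes in the 6 libraries, ordered by log2 fold change, with colour giving log2 FPKM less the gene's mean over the 6 libraries and an asterisk an edgeR adjusted p under 0.05. LLC alone library 3 is the darkest red column, and Mrpl47 at the top and Mrps6 and Mrps31 at the bottom keep their direction in all 6 libraries.

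Without a model, the FPKM values of the groups did not overlap in 45 members, 44 of them lower and 1 higher in LLC with BMSCs. FPKM values are divided by transcript length and library size so that levels of different genes can be compared. Over all tested genes the same kind of separation was seen downwards in 33.7% and upwards in 37%. These shares were not matched for transcript length. In the shortest length class, defined below, the groups separated downwards in 1308 of 2671 tested genes and in 27 of 56 members. Upwards they separated in 417 of these genes and 1 of these members. In the next class they separated downwards in 1113 of 2670 tested genes and in 12 of 13 members. For 3 libraries against 3, the smallest two-sided p of an exact permutation test is 0.1, and tests of single genes therefore come from the fit across all genes.

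These genes are short, and fold change varied with transcript length in these libraries. The median length of the members' transcripts was 1067 bases, against 2886 for all tested genes, and 56 of the 77 members fell into the shortest of 5 equal classes of tested genes. In that class 46.5% of all 2671 genes were called lower and 14.5% higher, and their median log2 fold change was -0.28. The 56 members in it had 26 called lower, or 46.4%, and 2 called higher, with a median of -0.22. The share of members called lower in the shortest class was therefore close to that of all genes there, and the share called higher was 3.57% against 14.5%. Members of this class had a median level of 43.5 FPKM, against 15.1 FPKM for all its genes.

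**Figure D2:**
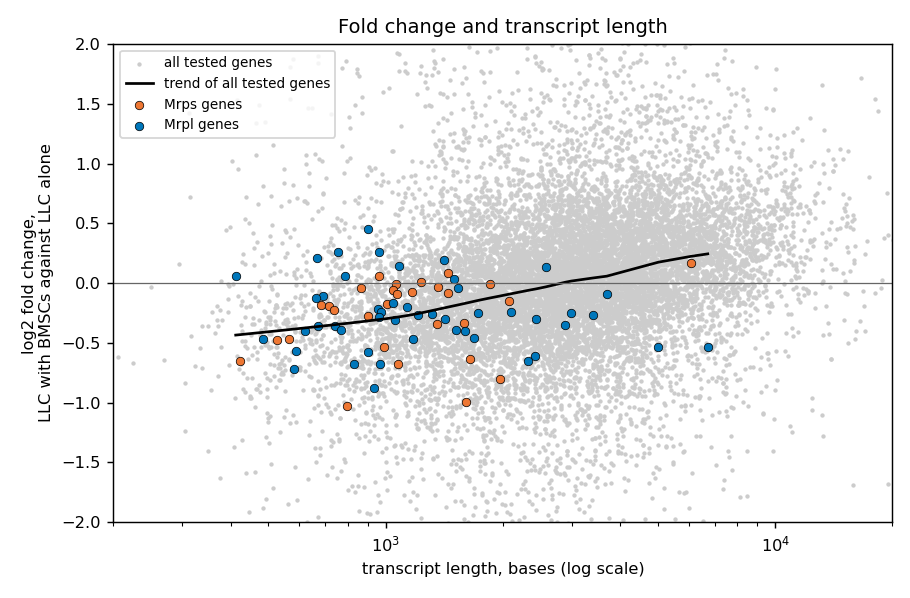
Log2 fold change (LLC with BMSCs against LLC alone, vertical axis) against transcript length in bases (horizontal axis, log scale) for all tested genes in grey and the MRP genes in colour, with the trend of all tested genes as a black line. The trend is below 0 for the shortest genes and above 0 for the longest, and the members scatter on both sides of it; genes beyond ±2 are outside the panel.

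Most of the longer members were called lower too. In length class 2, 12 of 13 members (92.3%) were called lower, against 38.7% of the 2670 genes there. The medians were -0.40 and -0.10, and no test of this share was made. The exception was Mrps27, a pentatricopeptide repeat protein of the small subunit, at -0.01. The shares were not matched for level, as the median level in this class was 31.75 FPKM for the members and 11.1 FPKM for all genes. Of the 8 members in the 3 longest classes, 5 were called lower, beside 31.6%, 25.4% and 14.4% of all genes in classes 3, 4 and 5. The longest class held 3 of these members, Mrpl17 (6712 bases), Mrps25 (6076 bases) and Mrpl19 (5016 bases). Mrps25, a small-subunit protein, was at 5.04, 5.19 and 6.92 FPKM against 6.19, 6.61 and 6.81 FPKM, and was not called, at a log2 fold change of 0.17 ± 0.12 (SE). Its reads were divided with Nr2c2, and the pair taken as 1 gene was called higher, as given below. Mrps25 was given 43.3%, 43.5% and 69.9% of the pair's counts in LLC alone. In LLC with BMSCs it was given 41.45%, 44.2% and 44.65%. Mrpl17 and Mrpl19, both large-subunit proteins with bacterial homologues, were called lower. Mrpl17 was at 7.80, 8.39 and 9.35 FPKM in LLC alone against 5.73, 6.12 and 6.02 FPKM in LLC with BMSCs, with a log2 fold change of -0.54 ± 0.08 (SE). Mrpl19 was at 21.1, 21.5 and 21.6 FPKM against 14.8, 15.3 and 14.9 FPKM, a log2 fold change of -0.53 ± 0.05 (SE). In Mrpl17 and Mrpl19 every LLC alone library was above every LLC with BMSCs library, while the median of the longest class of tested genes was 0.26.

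The length pattern followed single libraries as well as groups. The median log2 CPM of the shortest class, less its mean over the 6 libraries, was 0.06, 0.04 and 0.31 in LLC alone libraries 1 to 3 and -0.19, -0.09 and -0.11 in LLC with BMSCs libraries 1 to 3. The members moved alike, with 0.07, 0.01 and 0.29 in LLC alone and -0.15, -0.09 and -0.12 in LLC with BMSCs, and the longest class moved the other way, with -0.37 in LLC alone library 3. That library held the highest value of 64 of the 77 members (83.1%) and of 62.5% of the shortest class, and LLC with BMSCs library 1 held the lowest value of 39 members (50.65%) and of 40.1% of the shortest class. Leaving out LLC alone library 3, 12 members were called higher and 42 lower, and the median log2 fold change was -0.18. In that fit 34.98% of all tested genes were called higher and 33.5% lower.

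**Figure D3:**
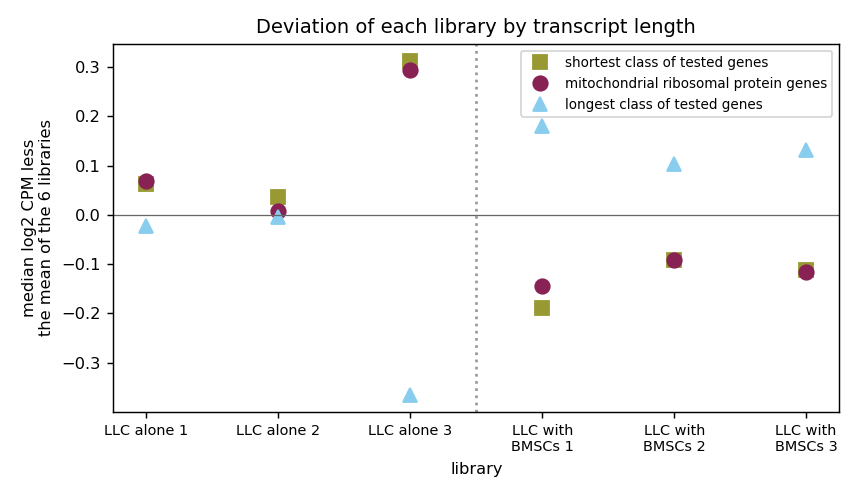
Median log2 CPM of the shortest class of tested genes, the longest class and the MRP genes in each library (horizontal axis), less the mean of the 6 libraries (vertical axis). In LLC alone library 3 the MRP genes (0.29) lie beside the shortest class (0.31) and far from the longest (-0.37), and the MRP genes of the 3 LLC with BMSCs libraries are all below 0.

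The replicates spread accordingly. The median coefficient of variation of a member was 11.1% over the 3 LLC alone libraries, 3% over the first 2 of them, and 4.79% over the 3 LLC with BMSCs libraries. In LLC alone the widest was Mrps34, a small-subunit protein particular to mitochondria, at 38.2, 35.7 and 50.3 FPKM. In LLC with BMSCs it was Mrpl23, described below, at 35.3%.

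When the trend over length was removed from each library before the fit, 27 members were called higher and 27 lower, their median log2 fold change was -0.01, and 35.6% of all tested genes were higher and 34.2% lower. This step takes out everything that follows length, including any difference between the groups that does so. Of the 43 members called lower before, 27 stayed lower, 16 were no longer called and 0 turned higher. Both members called higher stayed so, and 25 of the 32 uncalled members became higher. The range was then -0.82 (Mrps31) to 0.77 (Mrpl47). Removing trends over length and GC content together gave the same counts of 27 and 27.

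**Figure D4:**
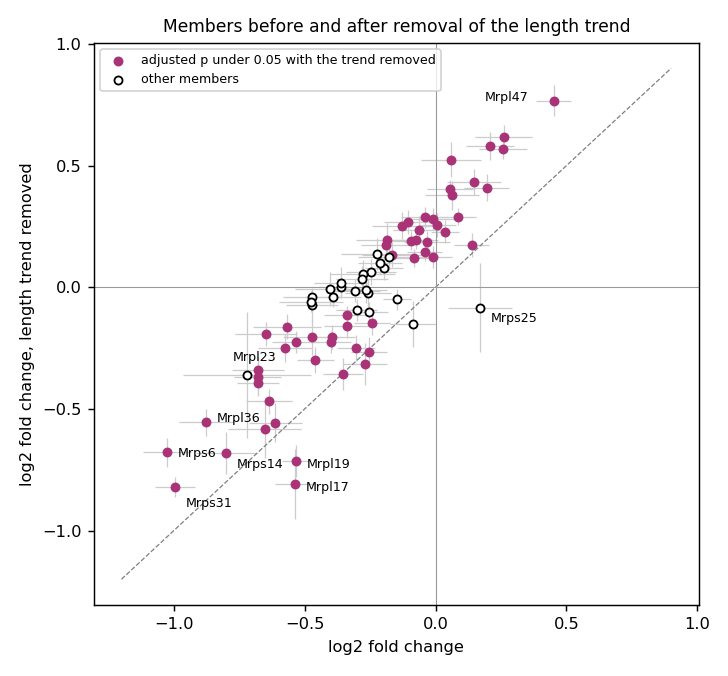
Log2 fold change of each MRP gene as fitted (horizontal axis) and with the length trend removed from each library (vertical axis), with bars of 1 SE and a dashed line of equality; filled points had an edgeR adjusted p under 0.05 with the trend removed. Nearly all short members lie above the line, the long members Mrpl17 and Mrpl19 lie below it, and Mrps31, Mrps14, Mrps6 and Mrpl36 stay among the lowest either way.

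Members with either prefix were called lower, counted by symbol with Mrps18a, Mrps30 and Mrps36 among the Mrps genes. Of the 29 Mrps genes 12 were called lower (median log2 fold change -0.19), and of the 48 Mrpl genes 31 were lower and 2 higher (median -0.28). The share called lower was 41.4% for Mrps and 64.6% for Mrpl, beside 31.3% of all tested genes and 46.5% of the shortest class. Less the trend of fold change over length, the median was 0.12 for Mrps, with 13 of 29 below 0, and -0.04 for Mrpl, with 29 of 48 below 0. The difference between the prefixes was not tested. By place in the ribosome and origin, 9 of 17 small-subunit and 17 of 31 large-subunit proteins with a bacterial homologue were lower, with medians of -0.22 and -0.25. Of the proteins particular to mitochondria, 2 of 9 in the small subunit (Mrps26 and Mrps31) and 15 of 19 in the large subunit were lower, with medians of -0.03 and -0.31. Less the length trend, the medians of the small-subunit and large-subunit proteins particular to mitochondria were 0.12 and -0.11. Transcripts of that last class were also longer, with a median of 1424 bases.

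Added over all members, FPKM came to 3758, 3717 and 4498 in LLC alone against 3275, 3514 and 3416 in LLC with BMSCs, a ratio of 0.852. The groups do not overlap, but the ratio was nearer to 1, at 0.954, when each library's FPKM values were scaled to the same total, with 7236, 7208 and 7764 against 6953, 7182 and 7051. On that scale the Mrps sum had a ratio of 0.894 and the Mrpl sum a ratio of 0.99. The Mrpl sums were 4507, 4499 and 4831 in LLC alone against 4511, 4639 and 4552 in LLC with BMSCs, and those groups overlap.

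Mrps6, the small-subunit protein homologous to bacterial S6, had the largest decrease. It was at 135, 127 and 158 FPKM in LLC alone against 71.8, 68.4 and 69.01 FPKM in LLC with BMSCs, and the lowest LLC alone library was well above the highest LLC with BMSCs library. The log2 fold change was -1.03 ± 0.09 (SE), with an edgeR adjusted p of 5.3e-05, and -0.68 ± 0.06 with the length trend removed. Reads of this gene were divided with Slc5a3, a myo-inositol transporter gene whose exons overlap those of Mrps6 on the same strand: the counts of both were fractional and summed to whole numbers in all 6 libraries. Mrps6 held 50.74% to 62.95% of the pair's counts. Slc5a3 itself had a log2 fold change of -1.19 ± 0.10, and the pair taken as 1 gene -1.10 ± 0.05, with an edgeR adjusted p of 2.7e-06. How the decrease was shared between these genes therefore rests on how the counting divided the reads, while that of the pair does not.

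Mrps31, a protein particular to the mitochondrial small subunit, was at 30.0, 29.7 and 34.5 FPKM in LLC alone against 14.9, 16.3 and 16.4 FPKM in LLC with BMSCs. All 3 LLC with BMSCs values were close to one another and far below LLC alone, with a log2 fold change of -0.995 ± 0.08 (SE) and an edgeR adjusted p of 2.6e-05. With the length trend removed the value was -0.82 ± 0.04, the largest decrease of any member. Pooled with the gene of no symbol that shared its reads, the log2 fold change was -0.98. Its RefSeq transcript carried 96.8% of the gene's transcript FPKM in LLC alone and 96.1% in LLC with BMSCs.

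Mrpl36, homologous to the small bacterial protein L36, was at 41.7, 37.5 and 50.4 FPKM in LLC alone against 24.5, 24.0 and 23.9 FPKM in LLC with BMSCs. The log2 fold change was -0.88 ± 0.11 (SE), with an edgeR adjusted p of 2.5e-04 and no overlap. Mrps14, the homologue of bacterial S14, was at 36.5, 37.5 and 46.2 FPKM against 20.4, 24.7 and 25.1 FPKM. Here too the groups were apart, with a log2 fold change of -0.80 ± 0.12 (SE) and an edgeR adjusted p of 6.5e-04. With the length trend removed Mrpl36 was at -0.56 and Mrps14 at -0.68. Exons of Mrpl36 overlap those of Ndufs6, a gene of respiratory complex I, on the opposite strand.

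Mrpl23, homologous to bacterial L23 at the exit of the peptide tunnel, had the next largest decrease and the largest standard error of the 5. It was at 35.1, 31.4 and 24.2 FPKM in LLC alone against 12.7, 17.6 and 25.7 FPKM in LLC with BMSCs, so that library 3 of each group crossed into the other group's range. The log2 fold change was -0.72 ± 0.24 (SE), with an edgeR adjusted p of 0.032. Its reads were divided with an assembled gene of no symbol, 568 bases long, and Mrpl23 was given 66.8%, 59.1% and 34.6% of the pair's counts in LLC alone and 33.1%, 43.7% and 64.35% in LLC with BMSCs. The pair summed to 1240, 906 and 1645 counts in LLC alone against 871, 905 and 889 in LLC with BMSCs, which gave a log2 fold change of -0.59 ± 0.11 and an edgeR adjusted p of 0.0027. The call on Mrpl23 alone was lost without LLC alone library 1 or 2 (adjusted p of 0.099 and 0.07) or LLC with BMSCs library 1 or 2 (0.086 and 0.089), and with the length trend removed (0.24).

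**Figure D5:**
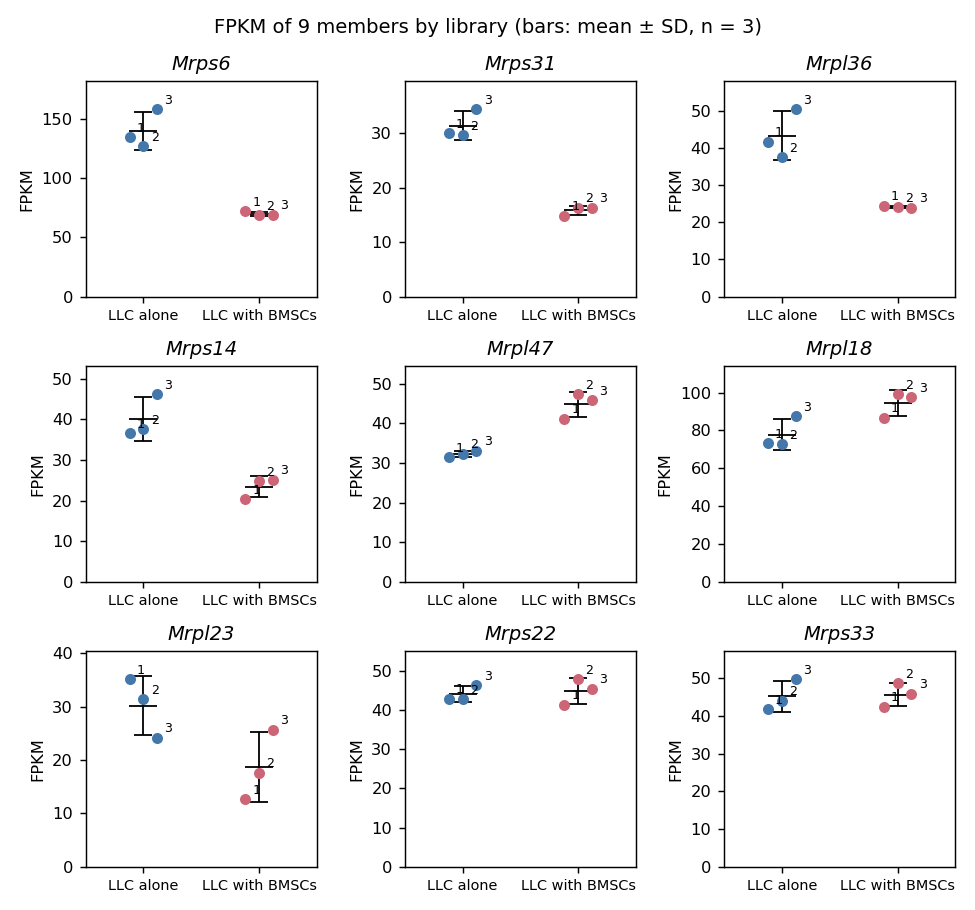
FPKM by library for 9 MRP genes, with points numbered by replicate and bars of the mean ± SD of 3 libraries, on axes that start at 0. Mrps6, Mrps31, Mrpl36 and Mrps14 are lower and Mrpl47 higher in all LLC with BMSCs libraries, Mrpl18 and Mrpl23 overlap between the groups, as do Mrps22 and Mrps33.

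Only 2 members passed the test upwards. Mrpl47, homologous to bacterial L29, was at 31.4, 32.3 and 33.1 FPKM in LLC alone against 41.1, 47.4 and 45.8 FPKM in LLC with BMSCs. The groups were apart, with a log2 fold change of 0.45 ± 0.07 (SE) and an edgeR adjusted p of 6.4e-04. Mrpl47 was the only member called higher (adjusted p under 0.05) in all of the 21 alternative settings. Its exons overlap those of Actl6a and Ndufb5 on the opposite strand, and no source says whether the counting used the strand. Mrpl18, homologous to bacterial L18, which binds ribosomal RNA, was at 73.4, 72.6 and 87.5 FPKM against 86.7, 99.1 and 97.6 FPKM. Its exons overlap those of the chaperonin gene Tcp1 on the opposite strand. Its lowest LLC with BMSCs library lay below its highest LLC alone library, and the log2 fold change was 0.26 ± 0.09 (SE), with an edgeR adjusted p of 0.041. That call did not hold without LLC alone library 1 or 2 (adjusted p of 0.13 and 0.12), nor without LLC with BMSCs library 2 or 3 (0.13 and 0.12).

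Of the 3 paralogues of bacterial S18, 2 were called lower. Mrps18b and Mrps18c belong to the small subunit, and Mrps18a to the large subunit. Mrps18b was at 97.4, 99.1 and 113 FPKM in LLC alone against 66.9, 67.5 and 61.8 FPKM in LLC with BMSCs, a log2 fold change of -0.68 ± 0.08 (SE) with an edgeR adjusted p of 2.2e-04. Mrps18c was at 65.7, 63.5 and 83.5 FPKM against 45.3, 55.3 and 54.99 FPKM, a log2 fold change of -0.48 ± 0.12 with an edgeR adjusted p of 0.011. In Mrps18a the groups overlapped, at 68.6, 67.7 and 80.5 FPKM against 66.2, 76.7 and 71.0 FPKM, and the log2 fold change was -0.04 ± 0.09 with an edgeR adjusted p of 0.7. With the length trend removed Mrps18b stayed lower at -0.39, Mrps18c was at -0.06 (edgeR adjusted p of 0.25) and Mrps18a was higher at 0.29 (3.6e-04). The difference between the paralogues themselves was not tested.

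The stalk of the large subunit, where translation factors dock, is made of Mrpl12 on a base of Mrpl10 and Mrpl11, and all 3 were called lower. Mrpl10 was at 46.4, 46.2 and 50.2 FPKM in LLC alone against 37.1, 35.1 and 33.2 FPKM in LLC with BMSCs, a log2 fold change of -0.46 ± 0.07 (SE) with an edgeR adjusted p of 8.1e-04. Mrpl11 was at 16.9, 16.8 and 18.9 FPKM against 13.0, 14.8 and 13.9 FPKM, a log2 fold change of -0.35 ± 0.08 with an edgeR adjusted p of 0.0042. Both kept the call with the length trend removed, at -0.30 and -0.36. Mrpl12, which also binds the mitochondrial RNA polymerase, was among the most abundant members, at 127, 125 and 157 FPKM against 117, 114 and 110 FPKM. Its groups did not overlap, yet its log2 fold change of -0.28 ± 0.10 passed narrowly with an edgeR adjusted p of 0.037, lost the call without any 1 of the LLC with BMSCs libraries (0.068, 0.099 and 0.12), and was 0.03 with the length trend removed.

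Members differed in level by 26.3-fold, from 6.13 FPKM for Mrps25 to 161 FPKM for Mrpl42 over the 6 libraries, although the assembled ribosome holds most of these proteins in single copies. There were 8 members over 100 FPKM and 3 under 10 FPKM. The 4 highest were Mrpl42, Mrpl30, Mrpl20 and Mrpl12. Mrpl42 was at 168, 171 and 205 FPKM in LLC alone against 141, 144 and 136 FPKM in LLC with BMSCs, with a log2 fold change of -0.36 ± 0.09 (SE) and an edgeR adjusted p of 0.0087. Mrpl30 was at 154, 150 and 188 FPKM against 154, 159 and 152 FPKM, and its groups overlapped, with a log2 fold change of -0.10 ± 0.09. Mrpl20 was at 117, 130 and 145 FPKM against 144, 163 and 153 FPKM, with a log2 fold change of 0.21 ± 0.09 and an edgeR adjusted p of 0.077. Without LLC alone library 3 Mrpl20 passed the test, at 0.30 with an edgeR adjusted p of 0.0034. With the length trend removed these 3 were at -0.00048, 0.27 and 0.58, and only Mrpl30 and Mrpl20 passed the test, both as higher.

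The smallest changes were in Mrps22, Mrps33 and Mrps27, all particular to the mitochondrial small subunit. Mrps22 was at 42.9, 42.8 and 46.4 FPKM in LLC alone against 41.4, 47.8 and 45.5 FPKM in LLC with BMSCs, with a log2 fold change of 0.01 ± 0.07 (SE). Mrps33 and Mrps27 were both at -0.01, with SEs of 0.08 and 0.07. LLC alone library 3 was the highest of its group in each of the 3. With the length trend removed they were at 0.25, 0.28 and 0.12 and passed the test.

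Mrps30, a large-subunit protein despite its symbol, was at 40.0, 42.1 and 49.5 FPKM in LLC alone against 35.5, 35.3 and 34.9 FPKM in LLC with BMSCs, with a log2 fold change of -0.34 ± 0.09 (SE) and an edgeR adjusted p of 0.01. The 3 LLC with BMSCs libraries lay within 1 FPKM of each other and below every LLC alone library. Mrps36, the 2-oxoglutarate dehydrogenase component, was at 41.7, 42.0 and 50.7 FPKM against 36.7, 41.1 and 41.9 FPKM. Its groups overlapped, and the log2 fold change of -0.19 ± 0.09 had an edgeR adjusted p of 0.11. It was called higher once the length trend was removed, at 0.17 with an edgeR adjusted p of 0.005.

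How the reads were counted touched other members too. Counts were whole in all 6 libraries for 54 members and fractional in at least 1 library for 23, as happens where reads are divided between genes. Of the 54, 28 were called lower (51.85%) and 2 higher (3.7%), and the median of their log2 fold changes was -0.23. These shares stand beside 31.3% lower and 31.5% higher of all tested genes. In the shortest class 46.5% were lower and 14.5% higher, and the median length of the 54 was 1056 bases. For 10 of the 23 a single partner gene was found whose counts added up with the member's to whole numbers within 0.011 in every library, and 5 of these partners had a symbol. Pooling each pair changed 3 calls. Mrpl53 with Ccdc142 was at -0.22 with an edgeR adjusted p of 0.11 where Mrpl53 alone was lower at -0.40. Mrpl55 with 2310033P09Rik was lower at -0.40 (edgeR adjusted p of 6.3e-04) where Mrpl55 alone, at -0.25, did not pass. Mrps25 with Nr2c2, a nuclear receptor gene, was higher at 0.41 (0.0023) where Mrps25 alone, at 0.17, did not pass. These 3 pairs were named after their values were seen.

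Exons of 23 members overlap another protein-coding gene in GENCODE M21, mostly on the opposite strand. Mrps11 and Mrpl46 overlap each other head to head. Mrps11 was at 12.3, 12.4 and 15.4 FPKM in LLC alone against 12.8, 13.3 and 13.0 FPKM in LLC with BMSCs, with a log2 fold change of -0.06 ± 0.10 (SE). Mrpl46 was at 11.9, 13.5 and 15.4 FPKM against 9.15, 10.7 and 9.98 FPKM, and was called lower at -0.47 ± 0.11 with an edgeR adjusted p of 0.0069. Of these neighbours Mrpl46 passed the test and Mrps11 did not, and the difference between them was not tested. Once the length trend was removed, Mrps11 was called higher, at 0.24 with an edgeR adjusted p of 0.0059, and Mrpl46 lower, at -0.20.

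Single transcripts were measured as well. The tables listed 103 transcripts for the 77 members, 12 of them assembled by the pipeline, and 60 members had a single transcript. Shares of transcripts could differ only in the 17 members with 2 or more. In 0 of these 17 did the share of a transcript separate the groups with a shift of 10 percentage points or more. The share of such genes over all tested genes is not given here. By promoter letters, counts of members called lower stand beside 31.3% of all tested genes. For the commonest letters, CCGGAA, they were 22 of 39 with them and 17 of 29 without, at median log2 fold changes of -0.27 and -0.25, and for CCGGAAG 13 of 25 and 26 of 43. For NRF1 they were 15 of 20 and 24 of 48 with the shorter letters, at medians of -0.40 and -0.20, and 5 of 7 and 34 of 61 with the longer ones, at -0.40 and -0.25. For AAGATGGCG they were 2 of 8 and 37 of 60, for ATGGCGGC 5 of 12 and 34 of 56, and for the E-box 2 of 5 and 37 of 63. None of these 7 splits was tested, and spellings that overlap share members.

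The other proteins that bind, build or serve the mitochondrial ribosome were described from lists written from general knowledge. Of 6 ribosome proteins without an Mrp symbol, 2 were called, both lower (33.3%, beside 31.3% of all tested genes). Ptcd3, a pentatricopeptide repeat protein of the small subunit, was at 117, 116 and 120 FPKM in LLC alone against 101, 104 and 102 FPKM in LLC with BMSCs, with a log2 fold change of -0.23 ± 0.05 (SE) and an edgeR adjusted p of 0.0057. Gadd45gip1, a large-subunit protein, was lower at -0.29 ± 0.11, and Dap3, a GTP-binding small-subunit protein, was at -0.10 ± 0.06 without passing.

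Assembly factors moved both ways. Of 25, 12 were lower and 7 higher, against backgrounds of 31.3% and 31.5%. The 3 largest changes were decreases. Rnmtl1, a methyltransferase of the large ribosomal RNA, had a mean of 20.2 ± 1.6 FPKM (SD, n = 3) in LLC alone against 7.35 ± 0.844 FPKM in LLC with BMSCs, a log2 fold change of -1.48 ± 0.10 (SE) with an edgeR adjusted p of 1.6e-05. Mrm1, also a methyltransferase of that RNA, was at 10.6, 10.1 and 11.4 FPKM against 4.58, 4.64 and 4.38 FPKM, a log2 fold change of -1.26 ± 0.07. Mterf3, which acts in mitochondrial transcription and ribosome assembly, was at -0.86 ± 0.06 (edgeR adjusted p of 1.6e-05). Rnmtl1 and Mrm1 both lay below the lowest MRP gene.

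Translation factors were also split, with 6 of 14 lower (42.9%) and 4 higher (28.6%), beside 31.3% and 31.5% of all tested genes. Tufm, the elongation factor that brings aminoacyl-tRNA to the ribosome, was at 37.6, 37.2 and 39.6 FPKM in LLC alone against 56.7, 53.6 and 51.6 FPKM in LLC with BMSCs, a log2 fold change of 0.48 ± 0.06 (SE) with an edgeR adjusted p of 4.2e-04. Mtfmt, which formylates the initiator tRNA, was higher at 0.49 ± 0.06, and Guf1, a translation factor of the EF4 family, was lower at -0.55 ± 0.07. Of 17 mitochondrial aminoacyl-tRNA synthetases 6 were higher and 6 lower (35.3% each), near the shares of all tested genes. The largest changes were in Ears2 for glutamate (-0.71), Aars2 for alanine (0.57) and Yars2 for tyrosine (-0.56).

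Among 20 genes of mitochondrial DNA maintenance and expression, 4 were higher (20%) and 7 lower (35%), beside 31.5% and 31.3% of all tested genes. Pnpt1, an RNA-degrading enzyme of mitochondria, was at 41.5, 40.0 and 43.1 FPKM in LLC alone against 66.2, 70.7 and 71.3 FPKM in LLC with BMSCs, a log2 fold change of 0.72 ± 0.06 (SE). Ssbp1, which binds single-stranded mitochondrial DNA, was higher at 0.58 ± 0.11. Tfam, which packages mitochondrial DNA and starts its transcription, was at 26.8, 25.2 and 28.2 FPKM against 17.7, 20.4 and 19.9 FPKM. Its groups were apart, with a log2 fold change of -0.49 ± 0.08 and an edgeR adjusted p of 8.6e-04. Polrmt, the mitochondrial RNA polymerase, was at -0.16 ± 0.07 and did not pass (0.086). None of the genes of the mitochondrial genome itself was among those tested, so that its transcripts are not described here.

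Of 16 regulators of nuclear genes for mitochondria 14 were tested, with 4 higher and 4 lower (28.6% each), near the 31.5% and 31.3% of all tested genes. Myc, whose product raises ribosome and mitochondrial gene expression, was at 677, 686 and 687 FPKM in LLC alone against 321, 284 and 288 FPKM in LLC with BMSCs, a log2 fold change of -1.22 ± 0.07 (SE) with an edgeR adjusted p of 4.8e-06. The stress regulators Ddit3 and Atf5 were the lowest of the list, at -3.10 ± 0.09 and -2.24 ± 0.10. Nrf1 itself was higher at 0.34 ± 0.06 and the orphan receptor gene Esrra at 0.74 ± 0.07. Gabpa, the DNA-binding subunit of GABP, was at 0.15 ± 0.08 and Pprc1 at 0.06 ± 0.13, and neither passed. The coactivator genes Ppargc1a and Ppargc1b were not tested, with at most 9 and 2 counts in any library.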

How the data were processed

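RNA sequencing of sorted LLC cells gave 3 libraries per group, LLC alone or LLC with BMSCs by the sample labels. The authors deposited estimated counts per gene, not normalized and not always whole, and FPKM per gene and transcript, which divide by length and library total. The submitters' processing notes name mm8, HISAT, StringTie, Cufflinks and GATK with no roles, and the counting program and its use of strand are not given in the sources used here. A table of the whole series and columns of the authors' own comparisons were not used.

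Estimated counts were rounded and tested with edgeR 4.0.16 in R 4.3.3 (TMM, its default filter, quasi-likelihood, Benjamini-Hochberg, threshold 0.05) over the 6 libraries, and the fit was tested on simulated data. Log2 CPM values used a prior count of 2, while the marker sums in CPM were rounded counts over the library total, with no prior count. Length trends were lowess fits (span 0.3) on log length in each library, removed as offsets, and length classes were 5 equal parts of the tested genes. Promoters were matched by NCBI gene identifier. Members named are the 5 largest changes each way that passed, the 4 highest, the 3 least changed, the S18 paralogues, the stalk, Mrps30 and Mrps36, and elsewhere the 3 largest called changes and a set of regulators; others were chosen after their values were seen. The members and lists were chosen with earlier results of these data known. Alternatives used DESeq2 1.42.0 and limma 3.58.1, among others.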

Additional observations from a re-analysis of the deposited data

How the results depend on the processing

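The counts of members called higher and lower (2 and 43) and their median log2 fold change (-0.26) were recomputed in 21 alternative settings that refit all genes and at 2 stricter thresholds. Members called higher numbered 1 with upper-quartile scaling and with close replicates summed, and 4 with limma on log2(FPKM + 1) or log2(FPKM + 0.1). Over all tested genes the shares called higher in these settings were 29.7%, 24.3%, 32.5% and 32.35%. At an adjusted p under 0.001 the called members were 1 higher and 11 lower. With a log2 fold change of at least 1 in size they were 0 higher and 1 lower. Shares of all tested genes at these 2 thresholds are not given here. Leaving out 1 library gave 1 to 12 higher, beside 26.8% to 34.98% of all tested genes. There were 12 without LLC alone library 3 and 1 without LLC alone library 1 or 2 or LLC with BMSCs library 2 or 3. Members called lower then numbered 39, 44 and 42 without LLC alone library 1, 2 or 3, beside 28.35%, 29.2% and 33.5% of all tested genes. Without LLC with BMSCs library 1, 2 or 3 they numbered 32, 36 and 33, beside 28.01%, 26.6% and 26.5% of all tested genes. The lower count was 32 with close replicates summed, beside 23.9% of all tested genes. With limma on log2(FPKM + 1) without a filter it was 36, beside 22.7%. The replicate numbers did not pair the libraries (correlations of 0.076, -0.11 and 0.057). With a replicate block the counts were 3 and 41 and the median -0.26, beside 31.2% higher and 30.4% lower of all tested genes. Removal of trends gave 27 higher, 27 lower and a median of -0.015 for length, 27, 27 and -0.027 for length and GC content, 26, 27 and -0.014 for length with the replicate block, and 28, 26 and -0.011 for length without LLC alone library 3. Over all tested genes these 4 settings gave 35.4% to 36.5% higher and 33.4% to 34.9% lower. Of all 77 members, 23 changed sign with the length trend removed, 22 from below 0 to above 0 (14 of them then called higher) and Mrps25 the other way. The 21 members named by rule held these changes of sign in the 4 settings, in that order: Mrpl30 to 0.27, 0.27, 0.27 and 0.26, Mrpl12 to 0.033, 0.019, 0.031 and 0.049, Mrps33 to 0.28, 0.28, 0.28 and 0.26, Mrps18a to 0.29, 0.28, 0.29 and 0.27, and Mrps36 to 0.17, 0.17, 0.17 and 0.16. Mrps27 went to 0.12 for length, 0.12 for length and GC content, 0.12 for length with the replicate block (adjusted p of 0.057, not passing) and 0.14 without LLC alone library 3, and Mrpl42 to 0.00087 for length and GC content. The cause was not tested. Of the 45 called members, 23 kept their call in every one of the 21 settings, 1 higher and 22 lower, and 0 were called the opposite way. Shared partners were pooled as a setting chosen after seeing the data.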
